A study of Mus musculus with 16 samples.

Results

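The genes described here are 7 whose products make, crosslink, anchor or cut the hyaluronan matrix of the cumulus: Has2, Tnfaip6, Ptx3, Cd44, Vcan, Adamts1 and Adamts4. They were chosen by name, with earlier results of these data known, so shares over all genes stand beside them for scale and not as a test. Every probe set that the annotation table pairs with one of these symbols alone was read. This gave 20 of the 45101 probe sets on the array. No probe set of theirs was shared with another gene. A filter on the mean signal of all arrays kept 13 of the 20, with at least 1 for each gene, and the brightest probe set stood for its gene among the 12172 genes tested. RNA came from intact ovarian follicles, preantral to small antral, dissected from female C57BL/6Tac mice and cultured in single drops. Each of the 4 experiments per time used a pool of follicles from 8 mice, which the sample labels give as 8 weeks old and the series text as 6 to 8 weeks. Follicles of a pool were cultured without AMH or with 50 ng/ml recombinant anti-Müllerian hormone (AMH), for 12 or 24 h, and a sample held 6 to 9 of them. The medium of all 4 groups contained 80 IU/L FSH and 10 IU/L LH, so the controls were gonadotropin-stimulated too, and the 16 arrays hold no group without gonadotropins and no uncultured follicles.

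Cumulus cells are the granulosa cells that surround the oocyte. After the ovulatory LH surge, EGF-like ligands and prostaglandin made by granulosa cells, together with factors from the oocyte, lead them to spin out long hyaluronan chains at the cell surface and to crosslink these into an elastic gel, which is called cumulus expansion. AMH is made by the granulosa cells of small growing follicles and is known for damping their growth and their response to FSH.

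RefSeq held a promoter entry for 5 of the 7 genes on GRCm38.p6, and the proximal promoters of Ptx3, Tnfaip6 and Cd44, the 3 of these called lower at 24 h in both arms, are shown for the sequence context of their start sites. They run from 250 bases before to 25 after the start site, 5′ to 3′ on the strand of the gene. The Ptx3 window is chr3:66219637-66219911 on the plus strand, that of Tnfaip6 chr2:52037863-52038137 on the plus strand and that of Cd44 chr2:102901641-102901915 on the minus strand. Capitals mark matches to the motifs searched.
Ptx3: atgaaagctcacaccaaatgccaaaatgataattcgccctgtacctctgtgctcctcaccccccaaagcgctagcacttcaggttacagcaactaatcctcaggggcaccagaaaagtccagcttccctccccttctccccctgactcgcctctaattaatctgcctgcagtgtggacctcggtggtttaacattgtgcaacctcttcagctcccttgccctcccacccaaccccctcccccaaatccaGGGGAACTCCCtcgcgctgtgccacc
Tnfaip6: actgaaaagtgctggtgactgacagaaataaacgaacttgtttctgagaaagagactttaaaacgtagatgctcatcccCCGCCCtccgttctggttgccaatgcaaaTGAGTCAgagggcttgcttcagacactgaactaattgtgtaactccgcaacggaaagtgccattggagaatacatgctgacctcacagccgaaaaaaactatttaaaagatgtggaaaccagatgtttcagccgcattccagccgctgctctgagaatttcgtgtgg
Cd44: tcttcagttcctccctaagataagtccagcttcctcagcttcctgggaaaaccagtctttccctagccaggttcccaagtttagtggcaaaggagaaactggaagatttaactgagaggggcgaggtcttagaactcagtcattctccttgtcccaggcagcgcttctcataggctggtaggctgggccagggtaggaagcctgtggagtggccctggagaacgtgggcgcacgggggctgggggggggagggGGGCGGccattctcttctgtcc
The motifs searched, on both strands, were AP-1 (TGANTCA), the CRE half-site (TGACG), Sp1 (GGGCGG), the TATA box (TATAAA), Runx (TGTGGT) and NF-kB, and the window searched ran to 50 bases after the start. In Tnfaip6 an AP-1 match began at base -142 and an Sp1 match on the minus strand at -171. In Ptx3 overlapping NF-kB matches spanned the start site, and in Cd44 an Sp1 match began at base 4 after it. The unprinted window of Adamts1 held a CRE half-site at -170, a TATA match at -32 and Sp1 matches at -147, -76 and -25. That of Vcan held Sp1 matches alone, at -219 and -10. Of 32817 promoters of this length, 7.81% held the AP-1 letters, 20.8% the CRE half-site, 35.6% Sp1, 13.6% TATA, 16.8% Runx and 8.46% NF-kB. These matches are letters in a window, and no match shows a bound site.

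All signals are linear array intensities made by the authors with MAS5, and changes are differences of log2(signal + 1.46). Median signals of the arrays lay between 27.8 and 40.2, arrays of one group correlated at 0.923 to 0.977, and a signal of 16.6 (a log2 of 4.18) was the level of the filter. Granulosa markers averaged a log2 of 8.09 to 10.15 per array over 13 tested of 14 listed, and oocyte markers 6.65 to 8.84 over 18 of 20, as the label of whole follicles states. Stromal and smooth muscle markers (12 of 15 tested), immune markers (12 of 16), endothelial markers (14 of 14) and surface epithelium markers (10 of 10) were also above the filter, while the leukocyte marker Ptprc and the macrophage marker Adgre1 were under it. In such bulk samples, fewer cells of a type and less RNA per cell cannot be told apart. An array signal depends on its probes, so levels are compared between groups of one probe set and never between genes.

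The question of the first comparison was how the matrix genes changed between 12 and 24 h of culture. In control follicles the probe set that stands for each of the 7 genes was lower at 24 h, with no overlap between the groups. The falls ran from 1.75-fold for Vcan to 9.19-fold for Tnfaip6 among the 6 genes other than Ptx3. Ptx3 gave a fitted 31.7-fold, but its 4 control arrays at 24 h all lay under the level of the filter, and with them raised to that level the fall was 20.2-fold. Across all 12172 genes, 9.19% were called lower at 24 h in the controls, and 10.9% were lower without overlap. In AMH-treated follicles Has2, Tnfaip6, Ptx3 and Cd44 were lower at 24 h, again without overlap, by 2.85-, 4.57- and 3.82-fold for Has2, Tnfaip6 and Cd44, against 3.94% of all genes called lower and 7.65% lower without overlap. The fitted 13.6-fold of Ptx3 there was 8.73-fold with its 3 dimmest 24 h arrays raised to the level of the filter. Ptx3 passed the filter through its 12 h arrays. Vcan, Adamts1 and Adamts4 did not pass the test in that arm. These 4 were called lower in both arms, as 3.02% of all genes were. With both arms averaged all 7 genes passed, against 15.1% of all genes called lower. As both arms of an experiment share a pool, this was repeated on the 8 pool means. There all 7 passed again, Vcan and Adamts1 nearest the threshold (limma adjusted p = 0.0353 and 0.0257). That fit takes the 8 means as independent, and the labels do not say whether 12 h and 24 h arrays shared a pool. The median change of the 7 genes was -2.05 in the controls and -1.51 with AMH on the log2 scale, beside medians of -0.01 and -0.02 over all genes. Centring each array on its median instead moved the median of all genes to -0.19 in the controls, and the share of calls that were higher from 52.0% to 24.5% there and from 50.3% to 32.0% for the mean of both arms. The members' calls did not change under it.

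**Figure D1:**
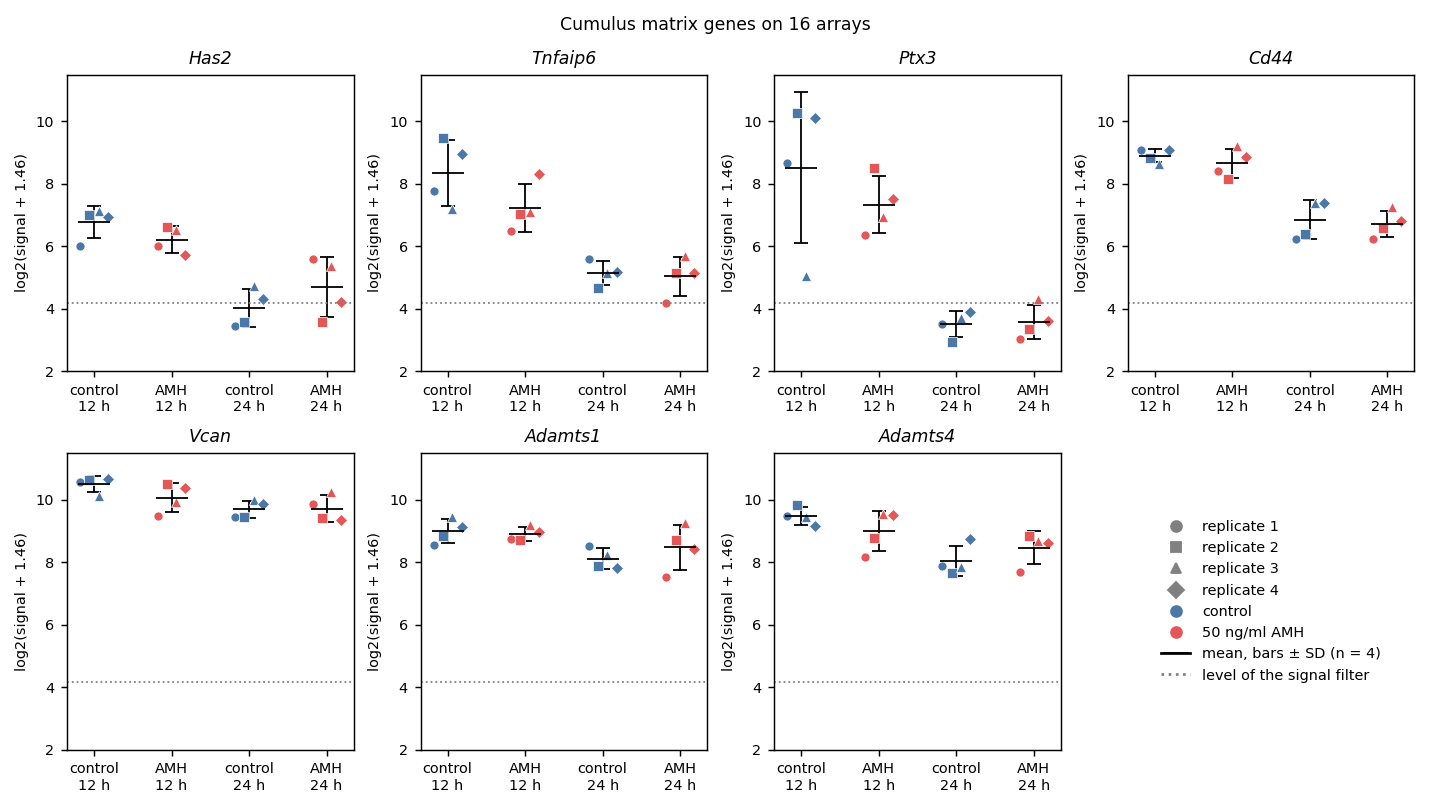
Log2(signal + 1.46) of the probe set that stands for each of the 7 genes, in each of the 16 arrays by group. Horizontal bars are group means with whiskers of 1 SD (n = 4), symbols give the replicate number and the dotted line is the level of the signal filter at 4.18. In the controls no 24 h array reaches a 12 h array for any gene, and Ptx3 shows the widest spread, with an SD of 2.42 at 12 h.

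Has2 encodes hyaluronan synthase 2, the enzyme of the plasma membrane that spins the hyaluronan of the cumulus. Its signals in the 4 control arrays at 12 h were 62.7, 127, 138 and 122, in order of replicate. At 24 h the controls gave 9.59, 10.4, 25.2 and 18.4, so that no array reached the lowest one at 12 h and 2 of 4 lay under the filter level. The change was -2.75 on the log2 scale (SE 0.42, 95% interval -3.65 to -1.86, 6.73-fold, limma adjusted p = 0.000513). The fall was 5.35-fold with those 2 arrays raised to the filter level. With AMH the signals were 62.6, 96.0, 90.5 and 50.9 at 12 h and 47.4, 10.5, 39.8 and 17.4 at 24 h. The AMH groups did not overlap either, but their gap was narrow, from 50.9 to 47.4. The change with AMH was -1.51 (SE 0.42, 95% interval -2.41 to -0.62, 2.85-fold, limma adjusted p = 0.0371). The 24 h array at 10.5 lay under the filter level, and with it raised to that level the fall was 2.57-fold. The call with AMH was lost without AMH 12 h replicate 1, 2 or 3, or without AMH 24 h replicate 2 or 4, at limma adjusted p between 0.0531 and 0.116. A second, dimmer probe set of Has2 lay under the filter, at 10.7 to 38.1 in the controls at 12 h and 0.45 to 8.22 at 24 h. Its changes were -2.67 in the controls and -1.61 with AMH, each with the smallest p that an exact two-sided permutation of 4 against 4 arrays can give, 0.0286, and 0.2 after adjustment over the 14 such tests.

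Tnfaip6, also called TSG-6, encodes the secreted protein that moves heavy chains of inter-alpha-inhibitor onto hyaluronan. Its control signals were 217, 705, 145 and 493 at 12 h and 46.7, 24.0, 33.6 and 35.0 at 24 h. Every 12 h array was thus above every 24 h array, although the 12 h arrays themselves spread widely. The change was -3.20 (SE 0.47, 95% interval -4.19 to -2.22, 9.19-fold, limma adjusted p = 0.000361). With AMH the signals were 87.6, 131, 135 and 317 at 12 h, and 16.6, 33.9, 50.0 and 34.3 at 24 h. The groups were again apart, with a change of -2.19 (SE 0.47, 95% interval -3.18 to -1.21, 4.57-fold, limma adjusted p = 0.00859).

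Ptx3 encodes the long pentraxin that binds the heavy chains carried by hyaluronan and helps tie the strands into a gel. Control signals at 12 h were 403, 1226, 31.6 and 1092, so that replicate 3 stood far below the rest of its group. At 24 h they were 10.1, 6.28, 11.6 and 13.6, all under the filter level. The change was -4.99 (SE 0.82, 95% interval -6.72 to -3.25, 31.7-fold, limma adjusted p = 0.000768), and without control 12 h replicate 3 it was -6.15, at an adjusted p of 1.13e-05 by limma. That array had the lowest signal of its group for Tnfaip6, Cd44 and Vcan as well, and the highest for Has2 and Adamts1. It also had the highest oocyte, immune, endothelial and stromal marker means of its group, at 8.84, 7.25, 7.70 and 8.19. Its granulosa mean was the lowest, at 8.09, and the part of these means in its signals was not tested. With AMH the Ptx3 signals were 80.9, 365, 121 and 183 at 12 h and 6.74, 8.72, 18.3 and 10.8 at 24 h, where 1 array reached the filter level. The change with AMH was -3.76 (SE 0.82, 95% interval -5.50 to -2.03, 13.6-fold, limma adjusted p = 0.0101). Its folds thus rest on 24 h signals near the dim end of the array.

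Cd44 encodes a hyaluronan receptor of the cell surface. Its control signals were 538, 453, 394 and 540.2 at 12 h and 73.5, 82.9, 165 and 167 at 24 h. The gap between the groups was wide, from 394 down to 167. The change was -2.05 (SE 0.29, 95% interval -2.66 to -1.44, 4.15-fold, limma adjusted p = 0.000288). With AMH the signals were 336, 287, 590.3 and 461 at 12 h and 74.6, 94.6, 151 and 111 at 24 h, a change of -1.93 (SE 0.29, 95% interval -2.54 to -1.32, 3.82-fold, limma adjusted p = 0.000962). In a fit of every probe set over the filter, all 3 Cd44 probe sets passed in both arms, with changes of -1.89 to -2.23 in the controls and -1.70 to -1.95 with AMH. Of all 7 genes, Cd44 was the one whose falls in the 2 arms lay closest together.

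Vcan encodes versican, a large proteoglycan whose head binds hyaluronan and whose core is a substrate of ADAMTS proteases. Control signals were 1510, 1589, 1103 and 1624 at 12 h and 692, 703, 1020.01 and 927 at 24 h. The groups came close, with 1103 the lowest at 12 h and 1020.01 the highest at 24 h. The change was -0.81 (SE 0.23, 95% interval -1.29 to -0.32, 1.75-fold, limma adjusted p = 0.0228). It missed the threshold without control 12 h replicate 2 or 4, or without control 24 h replicate 1 or 2, at limma adjusted p between 0.0571 and 0.0671. The 3 other Vcan probe sets over the filter gave changes of -0.76, -0.78 and -0.93 in the controls. They just missed the threshold over all probe sets, at limma adjusted p of 0.0577, 0.0517 and 0.0523. Their control signals overlapped between times. The lowest at 12 h were 754, 1008 and 603, and the highest at 24 h were 804, 1044 and 685. With AMH the signals overlapped between times, at 715, 1442, 965 and 1329 at 12 h and 937, 674, 1206 and 652 at 24 h. That change was -0.35 (SE 0.23, 95% interval -0.84 to 0.14, limma adjusted p = 0.385).

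Adamts1 and Adamts4 encode secreted metalloproteases that cut versican. Adamts1 signals in the controls were 371, 459, 697 and 562 at 12 h and 366, 232, 299.9 and 222 at 24 h. The lowest 12 h array, 371, lay just above the highest 24 h array, 366. The change was -0.89 (SE 0.29, 95% interval -1.49 to -0.28, 1.85-fold, limma adjusted p = 0.0393). It missed the threshold without any one of control 12 h replicates 2, 3 and 4 or control 24 h replicates 2, 3 and 4, with limma adjusted p between 0.0578 and 0.112. With AMH the Adamts1 signals were 430.4, 416, 578 and 494 at 12 h and 182, 420.3, 603 and 342 at 24 h, which overlapped, and the change was -0.42 (SE 0.29, 95% interval -1.02 to 0.18, limma adjusted p = 0.403). The mean over both arms, -0.65 (SE 0.20, limma adjusted p = 0.0215), missed the threshold without the 24 h arrays richest in oocyte markers (-0.44, limma adjusted p = 0.052).

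Adamts4 signals in the controls were 708, 911, 691 and 571 at 12 h and 235, 202, 228 and 427 at 24 h, with the 4 arrays of each time apart. The change was -1.44 (SE 0.31, 95% interval -2.10 to -0.78, 2.71-fold, limma adjusted p = 0.00499). Its second probe set fell by 1.11 at an adjusted p of 0.0331 by limma. With AMH the signals were 288, 434, 743 and 722 at 12 h and 204, 461, 411 and 393 at 24 h. These overlapped, since AMH 12 h replicate 1 lay below 3 of the 4 arrays at 24 h, and the change was -0.53 (SE 0.31, 95% interval -1.20 to 0.13, limma adjusted p = 0.323). Over all 7 genes, 10 of 13 probe sets were called lower in the controls, 6 of 13 with AMH and 12 of 13 for the mean of both arms, against 7.04%, 2.97% and 12.2% of all 23238 probe sets.

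**Figure D2:**
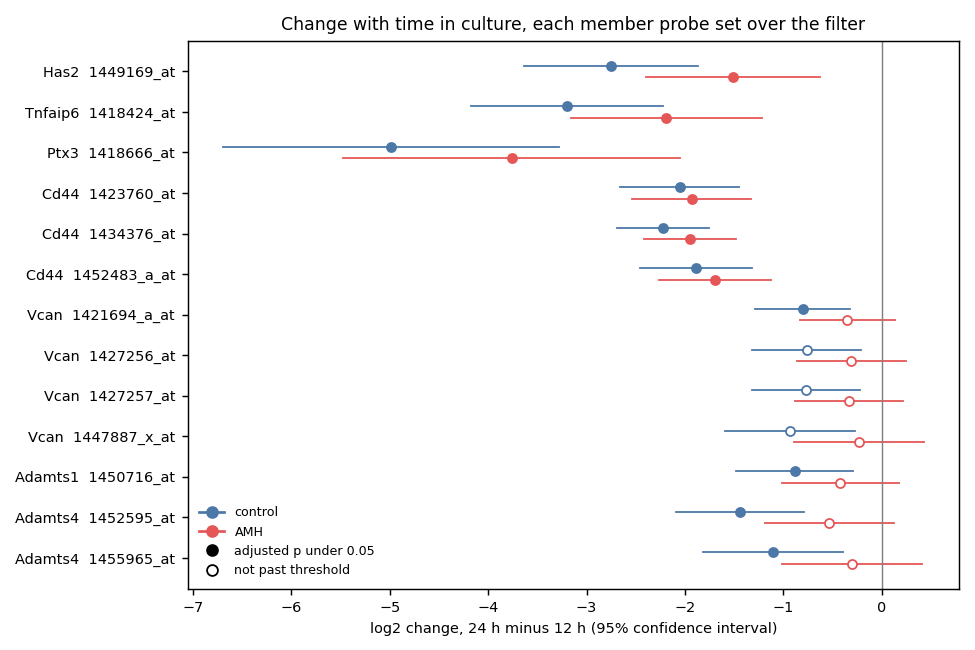
Log2 change from 12 to 24 h with its 95% confidence interval, for each of the 13 member probe sets over the filter, in control and AMH-treated follicles. Filled points passed an adjusted p of 0.05 in the limma fit of all probe sets. All points lie below 0, and Ptx3 has the widest intervals.

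Marker genes moved with time as well. In the controls 7 of 13 granulosa markers rose and 1 fell, and their group mean was 8.78 at 12 h and 9.52 at 24 h. Of 12 stromal and smooth muscle markers 6 rose, from a mean of 7.34 to 8.13, and 2 of 7 theca markers rose. These counts stand beside 9.96% of all genes called higher and 9.19% called lower. In the direction of the matrix genes, 3 of 10 surface epithelium markers, 2 of 12 immune markers and 1 of 14 endothelial markers fell. Endothelial markers were below 0 in 14 of 14 (median change -0.60, group means 6.79 and 6.18) and immune markers in 10 of 12 (median -0.24, means 6.34 and 5.83). No oocyte marker of 18 changed by this test, with means of 7.78 and 7.54. With AMH 4 of 13 granulosa markers rose and 1 fell, from a mean of 8.88 to 9.69. In that arm 3 of 12 stromal and 2 of 7 theca markers rose, while 2 of 10 surface epithelium and 1 of 12 immune markers fell. The counts with AMH stand beside 4.34% of all genes called higher and 3.94% called lower. Endothelial markers were below 0 in 6 of 14 with AMH (median 0.03) and immune markers in 2 of 12 (median 0.52). The part of these markers in the fall of the matrix genes was not tested. Oocyte content alone was varied, with each array's oocyte marker mean as a covariate or without the oocyte-rich 24 h arrays. In both settings all 7 members were called lower in the controls and 4 with AMH. Without those arrays Adamts1 missed the threshold in the mean of both arms (-0.44, limma adjusted p = 0.052). As no oocyte marker changed with time by this test, these settings cannot speak to the markers that moved.

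The second question was whether AMH changed these genes. At 12 h all 7 group means were lower with AMH, where 48.0% of all genes were, and the median change of the 7 was -0.48 beside 0.01 over all genes. None of the 7 passed limma's test after adjustment, and none of 12172 genes did (0.0% called). Of the 7, 2 (Tnfaip6 and Vcan) had an unadjusted p under 0.05 by limma, as had 788, or 6.47%, of all genes. Tnfaip6, Vcan and Has2 were lower with AMH in 4 of 4 pairs of arrays, as 7.71% of all genes were. At 24 h the 7 genes showed no common direction, with 2 of 7 lower (48.4% of all genes were), a median of 0.05, and 0 of 7 past limma's threshold or at an unadjusted p under 0.05, where 2 other genes, or 0.0164%, passed over the whole array and 496 genes, or 4.07%, had an unadjusted p under 0.05 by limma.

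Markers of other cell types also shared a sign in these comparisons. At 12 h, 13 of 14 endothelial markers were lower with AMH (median -0.43, close to that of the 7 genes), as were 9 of 10 surface epithelium markers (median -0.25) and 16 of 18 oocyte markers (median -0.16), while 3 of 12 immune markers were (median 0.08). At 24 h, 12 of 12 immune markers (median 0.74) and 12 of 12 stromal and smooth muscle markers (median 0.42) were higher with AMH, 1 of the latter past the threshold, as were 13 of 14 endothelial markers (median 0.30), while 16 of 18 oocyte markers were lower (median -0.16). The part of these markers in the AMH changes of the matrix genes was not tested.

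Tnfaip6 had the smallest p of the 7 genes at 12 h. Its AMH array lay below the control array of its pair in every pair, with differences of -1.30, -2.41, -0.10 and -0.63 in log2 units. The mean change was -1.11 (SE 0.38, 95% interval -1.96 to -0.27, limma adjusted p = 0.66). At 24 h the pairs went both ways, from -1.41 to 0.55, with a change of -0.10. The sign of that 24 h change turned under quantile scaling and median centring, at 0.006 and 0.013.

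Ptx3 was lower with AMH in 3 of 4 pairs at 12 h, with differences of -2.295, -1.745 and -2.57, and higher by 1.89 in pair 3, which holds the control array of low Ptx3 named above. The mean change was -1.18 (SE 0.59, 95% interval -2.48 to 0.12, limma adjusted p = 0.792). Without that pair it was -2.20 (limma adjusted p = 0.247), which still did not pass. At 24 h the change was 0.05, where signals were mostly under the filter level.

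Has2 changed by -0.56 at 12 h (SE 0.35, 95% interval -1.33 to 0.21, limma adjusted p = 0.828), with the arrays of the first pair almost equal at 62.7 and 62.6. At 24 h its change had the opposite sign, 0.68 (SE 0.35, 95% interval -0.10 to 1.45, limma adjusted p = 1). That value rested on the first pair, with a difference of 2.14 against 0.014, 0.63 and -0.073 in the others, and it was 0.19 without the pair. The AMH array of that pair was also the one with the highest oocyte marker mean of its group, at 8.33, and the part of this was not tested.

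Vcan changed by -0.43 at 12 h (SE 0.18, 95% interval -0.81 to -0.04, limma adjusted p = 0.716), and its 3 other probe sets by -0.43, -0.43 and -0.60. At 24 h the change was 0.03. Cd44 changed by -0.25 at 12 h (limma adjusted p = 0.89), lower in 3 of 4 pairs, and by -0.13 at 24 h. For the proteases, Adamts4 changed by -0.48 at 12 h (SE 0.30, 95% interval -1.14 to 0.18, limma adjusted p = 0.826), lower in 2 of 4 pairs, and by 0.43 at 24 h. Adamts1 changed by -0.10 at 12 h (limma adjusted p = 0.987) and by 0.37 at 24 h, where 3 pairs were higher, by 0.62 to 1.00, and the first was lower by 1.00. Averaged over both times, none of the 7 passed and Tnfaip6 alone had an unadjusted p under 0.05 (limma adjusted p = 0.999 for each, 0.0% of all genes called, 585 genes, or 4.81%, at an unadjusted p under 0.05).

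**Figure D3:**
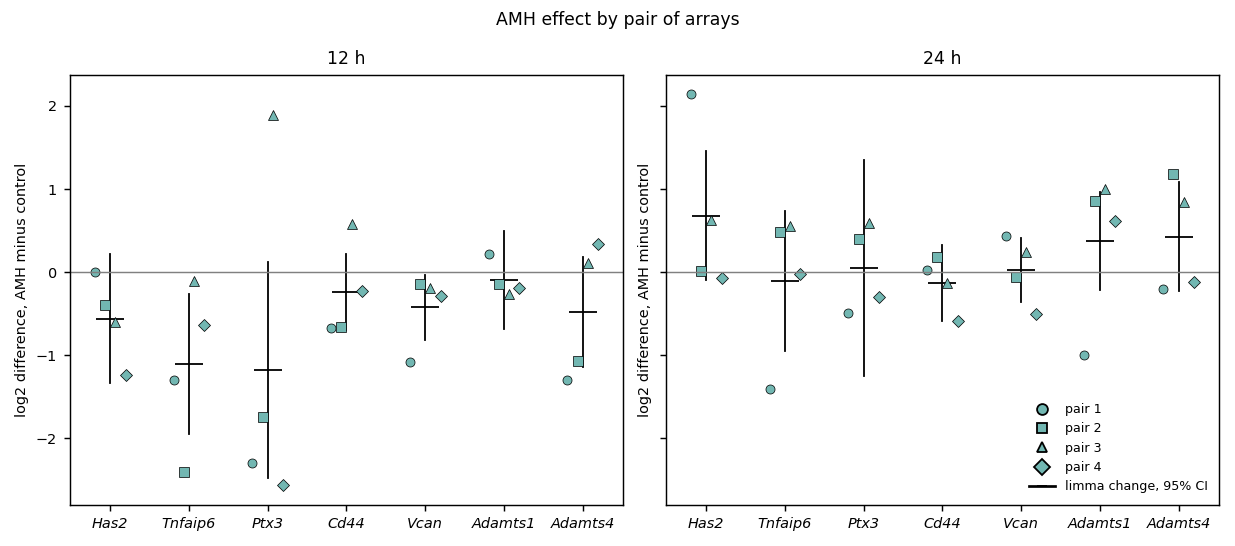
Log2 difference between the AMH and the control array of each pair, at 12 h and 24 h, for the 7 genes. Horizontal bars and whiskers are the limma change with its 95% confidence interval. At 12 h all 7 changes lie below 0, and the third pair of Ptx3 stands apart at 1.89.

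The difference between the AMH effects at 24 and 12 h equals the difference between the falls with time in the 2 arms, and the comparisons share arrays. It was above 0 for all 7 genes, where 49.5% of all genes were, with a median of 0.91 beside -0.00 over all genes. It was also above 0 for 14 of 14 endothelial markers (median 0.65) and 12 of 12 immune markers (median 0.68), which shared the sign of the matrix genes, and the part of these markers was not tested. Of the matrix genes 0 of 7 passed, and 0.0% of all genes did. Has2 alone of the 7 had an unadjusted p under 0.05 by limma, as had 687, or 5.64%, of all genes. For Has2 the difference was 1.24 (SE 0.50, 95% interval 0.15 to 2.33, limma adjusted p = 0.837). The differences of Ptx3, Tnfaip6 and Adamts4 were 1.23, 1.01 and 0.91, with limma adjusted p of 0.936, 0.902 and 0.879. Those of Vcan, Adamts1 and Cd44 were 0.45, 0.47 and 0.12. So the falls of Vcan, Adamts1 and Adamts4, which passed in the controls and not with AMH, were not shown to differ between the arms.

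Ordered by level, the control 12 h group was highest and the AMH 12 h group next for all 7 genes. The neighbours control and AMH at 12 h, and control and AMH at 24 h, did not differ past the threshold for any of them. For Ptx3, Tnfaip6, Has2 and Cd44 the step from the AMH 12 h group down to both 24 h groups came without overlap. For Vcan, Adamts1 and Adamts4 the AMH 24 h group came next and overlapped the AMH 12 h group, and the control 24 h group was lowest.

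Of genes related to the matrix, 94 were listed in 6 groups and 61 were tested. In the controls 7 rose and 13 fell with time, where 9.96% of all genes rose and 9.19% fell. With AMH 6 rose and 8 fell, where 4.34% and 3.94% did, and for the mean of both arms 11 rose and 18 fell, where 15.3% and 15.1% did. None of the 61 passed in any AMH comparison.

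Among 9 genes that supply hyaluronan synthesis, 8 were tested, 2 fell in the controls and 1 fell with AMH, with a median change of -0.47 and -0.30. Ugdh, which makes the UDP-glucuronate that hyaluronan synthases use, fell by 0.80 (SE 0.13, limma adjusted p = 0.000593) and by 0.63 with AMH (limma adjusted p = 0.00635). Uap1, which makes the other sugar donor, UDP-N-acetylglucosamine, fell by 0.82 in the controls (limma adjusted p = 0.0106) and changed by -0.66 with AMH (limma adjusted p = 0.0545). Has3 was on the array and under the filter. Ugdh and Uap1 thus went down along with Has2 in the controls, while the other tested genes of this group were not called there.

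Of 20 genes for hyaluronan-binding proteins 9 were tested, with medians of -0.43 and -0.12. The single one called in each arm was Bcan, the proteoglycan brevican. It rose by 1.96 in the controls (limma adjusted p = 0.00879) and 1.61 with AMH (limma adjusted p = 0.0434). For the mean of both arms 1 of the 9 was called higher and 2 lower. The link protein gene Hapln1 was under the filter. Of 9 genes for hyaluronan breakdown 5 were tested, and their medians were 0.51 and 0.41. Hexa, a lysosomal hexosaminidase subunit, rose by 0.98 in the controls and 0.76 with AMH (limma adjusted p = 0.00144 and 0.0148). Gusb, the lysosomal beta-glucuronidase, rose by 0.51 in the controls (limma adjusted p = 0.0142) and changed by 0.44 with AMH (limma adjusted p = 0.0538). Cemip2 fell by 0.97 and 0.76 (limma adjusted p = 0.00482 and 0.036).

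Of 25 relatives, processors and inhibitors of the proteases 17 were tested, with 2 higher and 4 lower in the controls, 3 higher and 2 lower with AMH, and medians of -0.07 and 0.18. In the controls the metalloprotease gene Mmp19 fell by 1.43 (limma adjusted p = 0.0011), Furin, whose product cleaves ADAMTS precursors, by 0.51 (limma adjusted p = 0.00219) and the inhibitor gene Timp1 by 0.93 (limma adjusted p = 0.00358), while Timp4, another inhibitor, rose by 3.20 (limma adjusted p = 0.00871). With AMH Adamts12 rose by 1.60 (limma adjusted p = 0.00442), Timp3 rose by 0.66 (limma adjusted p = 0.0443), and Timp1 and Furin fell by 0.98 and 0.33 (limma adjusted p = 0.00568 and 0.0432). The inhibitors therefore went in different directions.

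Of 22 signals and factors known to drive cumulus expansion 15 were tested, with 2 higher and 3 lower in the controls, 1 higher and 3 lower with AMH, and medians of -0.12 and -0.06. The EGF-like ligand genes Btc and Ereg fell by 2.71 and 2.53 on the log2 scale in the controls (limma adjusted p = 2.5e-05 and 0.0023) and had changes of -2.25 and -1.81 with AMH (limma adjusted p = 0.000264 and 0.0305). Ptgs2, which encodes the inducible prostaglandin synthase, fell, with changes of -3.33 and -2.07 (limma adjusted p = 0.000114 and 0.00614). The FSH receptor gene Fshr rose by 2.25 and 2.58 (limma adjusted p = 0.00846 and 0.00773). Areg, Lhcgr and Runx2 were among those not analysed here. Of 9 genes for other pentraxins and proteins that link CD44 to the cytoskeleton 7 were tested, and none rose. The neuronal pentraxin gene Nptx1 fell by 2.39 in the controls and 2.16 with AMH (limma adjusted p = 0.000825 and 0.00351), and Ezr and Msn, which encode the CD44 linkers ezrin and moesin, fell by 0.86 and 0.49 in the controls (limma adjusted p = 0.00238 and 0.0492).

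**Figure D4:**
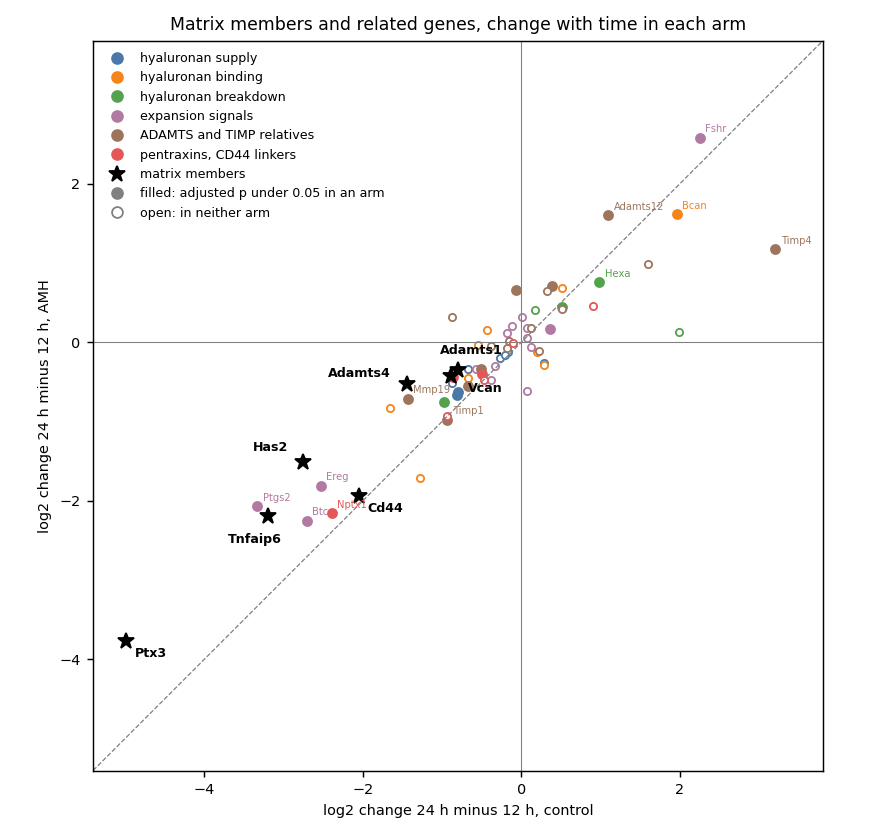
Log2 change from 12 to 24 h in control follicles (x axis) against that in AMH-treated follicles (y axis), for the 7 matrix genes (stars) and 61 related genes coloured by group. Filled circles passed an adjusted p of 0.05 in at least 1 arm, and the dashed line marks equal change. The stars all lie in the lower left of the plot, near Ptgs2, Btc and Ereg for Tnfaip6, Has2 and Cd44.

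For the AMH effect at 12 h, the related genes with the smallest p in each group, none past the threshold, had changes of -0.46 (Has1) and 0.24 (Pgm3), -0.99 (Lyve1) and 0.77 (Bcan), 0.25 (Hexa) and 0.18 (Gusb). In the other groups they were -0.40 (Timp3) and 1.40 (Timp4), 0.27 (Nrip1) and -0.32 (Smad2), -0.32 (Podxl) and -0.35 (Ezr). At 24 h the corresponding changes were -0.31 (Pgm3) and 0.16 (Ugdh), -0.61 (Layn) and 0.82 (Itih5), 0.24 (Hyal2) and 0.11 (Gusb). The last 3 groups gave 0.43 (Timp2) and 1.17 (Adamts7), 0.65 (Fshr) and 0.28 (Egfr), -0.33 (Podxl) and 0.11 (Msn). No group of related genes had a member past the threshold at either time.

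Within one time the matrix genes were compared with each other across arrays. Of 21 pairs of genes, 18 had a Pearson correlation above 0 over the 8 arrays at 12 h and 18 did at 24 h, with medians of 0.29 and 0.49, beside 50.1% and 50.4% of all pairs of the 12172 genes. The 8 arrays are 4 pools with 2 arms each, which the permutations treat as exchangeable, so their p-values are approximate. None of the 42 relations passed after adjustment, and the lowest adjusted p was 0.152 by an exact two-sided permutation test. Ptx3 and Tnfaip6, both binding partners in the crosslinking of hyaluronan, correlated at r = 0.78 at 12 h (Spearman rho 0.71, exact permutation p = 0.0253 and 0.0576, adjusted 0.152 and 0.403). At 24 h their r was 0.79 (rho 0.74, exact permutation p = 0.0184 and 0.0458, adjusted 0.152 and 0.403). The Ptx3 signals at 24 h lay under the filter level in all 4 control arrays and in 3 of the 4 AMH arrays. Without the 2 arrays farthest from the median of Ptx3, its r with Tnfaip6 was 0.76 at 12 h and 0.69 at 24 h. Ptx3 and Vcan correlated at r = 0.77 at 12 h (rho 0.91, exact permutation p = 0.0235 and 0.00456, adjusted 0.152 and 0.192), and at r = 0.89 without those 2 arrays. At 24 h Ptx3 and Vcan gave r = 0.59 (rho 0.43), and r = 0.12 without the 2 farthest arrays. Over the 21 pairs r ran from -0.435 (Ptx3 and Adamts1) to 0.778 at 12 h. At 24 h the range was from -0.249 (Tnfaip6 and Has2) to 0.82 (Tnfaip6 and Adamts1). All genes of an array share its RNA sample and its scaling.

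Over all 16 arrays, which share the difference between the times, the 3 tested genes, other members aside, whose log2 signals were most like each member were as follows. For Ptx3 they were Mis18a (r = 0.95), Bmp6 (0.93) and Zcchc12 (0.93), and for Tnfaip6 Mis18a (0.93), Aldh1a3 (0.93) and Nts (0.93). For Has2 they were Tardbp (0.94), Exosc8 (0.94) and Rcc1 (0.94), and for Cd44 Tnfrsf23 (0.97), Aldh1a3 (0.96) and Ier5 (0.96). For Vcan they were Zfp287 (0.90), Racgap1 (0.89) and Bmp6 (0.89). For Adamts1 they were Ghr (0.91), Ube2f (0.90) and Ly6d (0.89), and for Adamts4 Camk2n2 (0.91), Eno2 (0.90) and Snx10 (0.90). Mis18a was shared by Ptx3 and Tnfaip6, Aldh1a3 by Tnfaip6 and Cd44, and Bmp6 by Ptx3 and Vcan.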

How the data were processed

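RNA of 16 samples (5 ng each) was amplified, labelled with biotin and hybridised to Affymetrix arrays, per the labels' protocols. The authors deposited linear signal intensities per probe set which MAS5 had computed (tool per the submitters' processing notes). Version and scaling target are not given in the sources used here. With 2% cut at each end, every array's mean was 150.00. Intensities were turned into log2(signal + 1.46), with the offset at the 10th percentile of the whole table. The 45101 probe sets included 64 controls. Of the others, 34945 carried 1 symbol, 932 several and 9160 none. Those whose mean reached the 40th percentile were kept, and the brightest stood for its gene. This gave 12172 genes, or 23238 probe sets where each was tested. The filter and the offset limit the folds of dim genes.

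limma 3.58.1 in R 4.3.3 fitted all 16 arrays with a variance trend, and p-values were adjusted by Benjamini-Hochberg (threshold 0.05). The AMH comparisons had the pair of arrays as a block, since the series text and protocol state that both arms of an experiment came from one pool. In the data, deviations of paired arrays correlated at 0.299, 0.349, 0.56 and 0.214 for the 12 h pairs, while the 24 h pairs gave -0.437, 0.327, 0.2 and -0.287. The time comparisons had 4 group means and no block, as the labels do not say whether equal numbers shared a pool across times. Member probe sets under the filter and relations between members were tested by exact permutation. The fits were tested on simulated data.

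The members and gene lists were chosen with earlier results of these data known. Every member probe set is named; of each related list, the genes past the threshold in each arm's change with time (up to 4 by smallest p) and, for AMH at 12 and 24 h, the 2 with the smallest p; the other comparisons of the lists are given by counts. Motif searches were by letters on RefSeq promoters. Detection calls were not analysed here. The number of arrays limits the precision. Alternatives covered the offset, filter, scaling, probe set choice, array weights, trend, arrays fitted, block and each replicate left out; those on oocyte content and on pool means were chosen after seeing the data.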

Additional observations from a re-analysis of the deposited data

Results flagged for a closer look

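One value stood apart from its group. Has2 in control replicate 1 at 12 h had a log2 of 6.004, or a signal of 62.7, where the other 3 arrays of the group lay between 122 and 138. Its gap to the nearest array, divided by the range of the group, was above Dixon's 95% critical value for 4 samples. By chance such a value appears in about 1 of 20 groups. As 28 groups were examined (7 genes in 4 groups), 1 such value among them is not unusual. Without this replicate's pair the AMH change of Has2 at 12 h was -0.75, against -0.56 with it. The low Ptx3 value of control replicate 3 at 12 h did not pass the same criterion, at a ratio of 0.693.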

How the results depend on the processing

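Of 575 member values for change with time under alternatives, 556 kept their direction and their side of the threshold, 19 kept the direction and lost the call, and none turned. The losses were those of Vcan and Adamts1 in the controls, Has2 with AMH and Adamts1 in the mean of both arms; Ptx3, Tnfaip6 and Cd44 in each arm, and Has2 and Adamts4 in the controls, kept their calls wherever they were tested. Besides the arrays left out named in the report, Adamts1 in the controls was lost with no variance trend (adjusted p = 0.052, limma), and Has2 with AMH with no filter (0.0501) or only the arrays compared (0.0663). The number of members called lower lay between 5 and 7 in the controls, 2 and 4 with AMH and 5 and 7 in the mean. A filter at the 60th percentile dropped Ptx3 and Has2 and left 5 members, with 2 called with AMH.

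Over all genes, the count with time moved by over 1.5 times with array weights (3945 in the controls, 1857 with AMH), with median centring (567 with AMH) and without AMH 24 h replicate 2 (588) or AMH 12 h replicate 3 (516) or 4 (630), from 2330 and 1008. With every probe set tested it was 3673, 1566 and 6095 for controls, AMH and mean, and on pool means the mean of both arms gave 2915 genes, from 3706. The 2 AMH calls at 24 h ranged from 0 to 7, those at 12 h from 0 to 3, of the mean from 0 to 6 and of the difference from 0 to 21, the highest with array weights; no member was among them. For the change with time, a replicate block gave 2634, 1235 and 3938 genes in the controls, AMH and mean, and the same 7, 4 and 7 members; equal numbers across times correlated at -0.409 to 0.134 in the controls and 0.037 to 0.247 with AMH. Without the replicate block, 0 genes were called in each AMH comparison.

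Of 615 member values for AMH, 588 kept their direction and 27 turned, none of them past the threshold before or after. At 24 h Ptx3 became -0.064 with the oocyte covariate, and Cd44 0.03 without the oocyte-rich arrays. Tnfaip6 became 0.006 at 24 h with quantile scaling, 0.013 with median centring, 0.321 with array weights and 0.514 without the oocyte-rich arrays. For AMH comparisons this last setting dropped both arrays of 24 h pairs 1 and 4, as each of these pairs held 1 oocyte-rich array. Its 24 h values thus rest on pairs 2 and 3 alone. In the mean of both times Has2 became -0.028 with an offset of 16 and with array weights and -0.119 without the oocyte-rich arrays, and Adamts4 0.014 with median centring, 0.103 with array weights, 0.005 with the oocyte covariate and 0.268 without the oocyte-rich arrays. With each pair left out, the 24 h changes ranged from -0.134 to 0.229 for Ptx3, -0.321 to 0.333 for Tnfaip6, -0.232 to 0.028 for Cd44 and -0.109 to 0.206 for Vcan; the means from -0.185 to 0.184 for Has2 and -0.163 to 0.11 for Adamts4; and the difference of Cd44 from -0.026 to 0.394. The causes were not tested. Median centring moved the median of all genes to 0.12 for AMH at 24 h.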

Other observations

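Besides the dim probe set of Has2, 6 member probe sets lay under the filter: 1 of Ptx3, 1 of Cd44 and 4 of Vcan. Their changes with time lay between -0.69 and 0.04 in the controls and between -0.92 and 0.215 with AMH, and the exact two-sided permutation p of 4 against 4 arrays was 0.2 or above for each, up to 0.971. The dim probe sets of Ptx3 and Cd44 thus gave -0.44 and -0.33 in the controls, beside -4.99 and -2.05 for the bright ones.

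The log2 ratio of the 3′ to the 5′ control probe sets of Gapdh had medians of 0.668, 0.744, 0.690 and 0.794 in control 12 h, AMH 12 h, control 24 h and AMH 24 h. In the same order the medians were 0.008, 0.043, 0.03 and 0.034 for actin. Those of the transferrin receptor were -0.756, -0.571, -0.682 and -0.738. The ranges of the 4 groups overlapped for each transcript.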
